A study of Mus musculus with 13 samples.

Results

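Expression of 10 immune checkpoint and exhaustion genes was examined in subcutaneous Panc02 tumors, which grow from a mouse pancreatic ductal adenocarcinoma cell line. The genes were picked by name: the receptors Pdcd1 (PD-1), Ctla4, Havcr2 (TIM-3), Lag3, Tigit and Btla, the ligands Cd274 (PD-L1), Pdcd1lg2 (PD-L2) and Lgals9 (galectin-9), and the nuclear factor Tox. They are 10 of the 22180 genes measured, and each was read by 1 probe set of an Affymetrix Mouse Gene 2.1 ST array. The tumors came from 13 male C57BL/6 mice in 4 groups: 3 non-obese mice on the control diet (control), 3 on that diet with β-hydroxy-β-methylbutyrate, a leucine metabolite (control + HMB), 3 with diet-induced obesity from a high-fat diet (DIO), and 4 with diet-induced obesity and HMB (DIO + HMB). Each array held the tumor of 1 mouse, and all tumors came from the same injected cell line. The labels do not give the age of the mice, nor whether a mouse was injected with gemcitabine, a chemotherapy drug, or its vehicle. Values are on the log2 scale, where a difference of 1 is a 2-fold difference in signal, and levels are compared between arrays and never between genes, since probe sets differ in brightness.

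Checkpoint receptors are inhibitory molecules that T cells place on their surface after activation, and their ligands are carried by tumor cells, macrophages and dendritic cells. When a ligand binds, some of these receptors recruit phosphatases that dampen signaling from the T cell receptor. T cells that meet antigen for a long time keep several of these receptors at once and lose effector function, a state called exhaustion that is maintained by the factor TOX. Myeloid cells carry some of the same molecules, TIM-3 among them. In RNA from a whole tumor, fewer cells of a type and less RNA per cell cannot be told apart.

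Over all genes, correlations between arrays ranged from r = 0.960 to 0.983. Among keratins of the epithelial Panc02 cells, Krt8 had group means of 9.11 to 9.38. Krt19 had means of 3.97 in control and 3.74 in control + HMB. The epithelial adhesion gene Epcam lay at 4.24 to 4.74. Of the acinar genes, markers of normal pancreas, Prss2 lay at 1.96 to 2.18. The other acinar genes had control means of 4.33 (Cela1), 3.67 (Ctrb1) and 3.59 (Cpa1). Since probe sets differ in brightness, these levels do not give the amount of a cell type. The T cell receptor gene Cd3e had group means of 8.33 in DIO and 9.15 to 9.18 in the other groups. Some arrays stood apart in marker lists of immune cells. A list score is the mean over the genes of a list of the log2 value minus the gene's mean over all arrays. DIO + HMB replicate 1 had a B cell score of 3.69 over 8 genes and a T cell score of 1.52 over 8 genes, against -0.42 to -0.13 and -0.20 to -0.07 in the other DIO + HMB arrays. DIO replicate 3 had the lowest T cell score of all arrays, -0.93. It was also the lowest array for the fibroblast (-1.10), endothelial (-0.40) and neutrophil (-0.67) scores. DIO + HMB replicate 1 and DIO replicate 3 are called below the arrays that stood apart. The width of an array, taken as the SD over its genes, ran from 2.51 to 2.54 in control, 2.57 to 2.62 in control + HMB, 2.51 to 2.60 in DIO and 2.58 to 2.62 in DIO + HMB.

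To show control regions of members, the bases upstream of the transcription start were taken from RefSeq (GRCm38.p6), which gave a promoter for 8 of the 10 members. Windows are printed for Havcr2, Lgals9 and Btla only, though Tigit also held a match. Tox and Lag3 were not matched. The 250 bases before the start were searched on both strands for letters of factors that act in immune cells: the interferon gamma element GAS (TTCNNNGAA), the core of the interferon-stimulated response element (GAAA, any 2 bases, GAAA), AP-1 (TGANTCA), the myeloid and B cell factor PU.1 (GAGGAAGT) and RUNX (TGTGGT). Matches are in capitals, and none overlaps another in the windows printed. The Havcr2 window, chr11:46454681-46454930 on the plus strand, held an AP-1 match at positions -200 to -194 from the start, a RUNX match at -46 to -41 and a PU.1 match that ends at the base before the start. The Lgals9 window, chr11:78984925-78985024 on the minus strand, held the interferon core in reverse orientation at -55 to -46. The Btla window, chr16:45224237-45224336 on the plus strand, held a PU.1 match at -18 to -11 from the start that this table uses, which lies inside the annotated gene.
Havcr2: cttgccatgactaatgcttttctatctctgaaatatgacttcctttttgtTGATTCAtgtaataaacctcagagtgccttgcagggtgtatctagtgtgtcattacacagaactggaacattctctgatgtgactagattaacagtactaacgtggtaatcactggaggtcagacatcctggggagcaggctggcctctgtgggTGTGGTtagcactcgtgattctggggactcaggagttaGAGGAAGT
Lgals9: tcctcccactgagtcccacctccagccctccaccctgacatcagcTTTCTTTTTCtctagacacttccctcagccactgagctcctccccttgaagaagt
Btla: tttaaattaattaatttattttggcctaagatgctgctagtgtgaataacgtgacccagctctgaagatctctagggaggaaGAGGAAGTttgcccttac
Of the 8 promoters, 2 held the PU.1 letters (Havcr2 and Btla), 3 the RUNX letters (Havcr2, Tigit and Btla), 1 the AP-1 letters (Havcr2), 1 the interferon core (Lgals9) and 0 the GAS letters. Among all 32851 promoters the shares were 2.44% for PU.1, 14.05% for RUNX, 6.75% for AP-1, 2.98% for the interferon core and 7.02% for GAS. A match of letters is a description of the sequence and not a binding site.

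**Figure D1:**
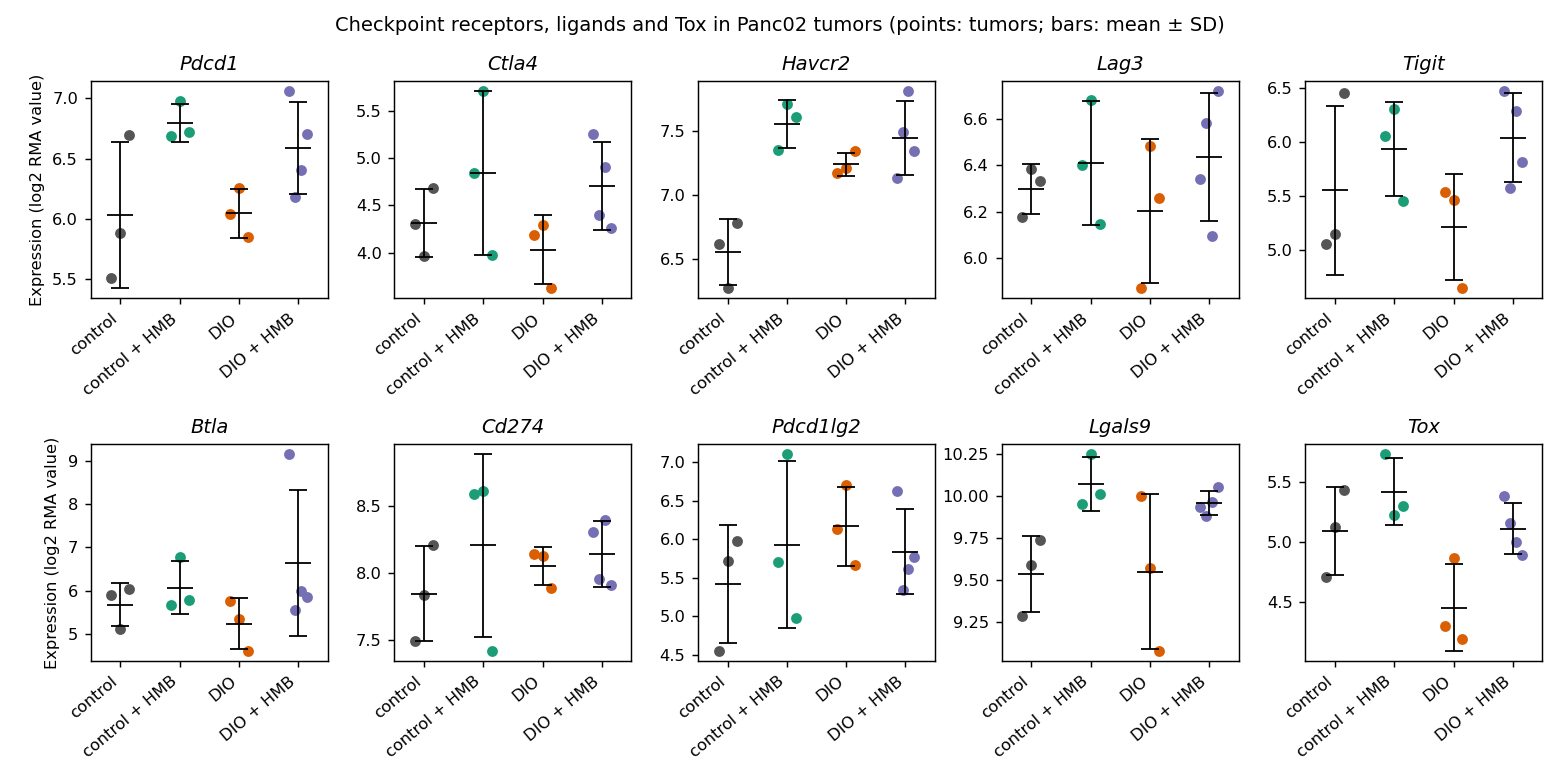
Log2 value of each of the 10 genes (1 panel a gene) in every array, by group. Points are arrays and black bars the group mean ± SD. Every Havcr2 point of control (6.27 to 6.78) lies below every point of the other 3 groups (7.13 to 7.81), and the highest Btla point (9.17) is DIO + HMB replicate 1.

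All 6 comparisons below come from 1 limma model over the 13 arrays, with p-values adjusted by the Benjamini-Hochberg method over 22180 genes. No member passed an adjusted p of 0.05 in any comparison, nor in the F test across the 4 groups, and neither did any other gene (0 of 22180, 0%). The rest of this account therefore gives values and their errors. At an unadjusted p under 0.05, 4 of the 10 members (Havcr2, Tox, Pdcd1 and Lgals9) were counted in the F test, against 9.4% of all genes. That count ran from 2, without control replicate 1, to 5, without control replicate 3, with 1 array left out, and it was 2 with array medians subtracted, quantiles matched again or the replicate number in the model and 1 with array width in the model. Comparisons with control share the same 3 control arrays.

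Most checkpoint genes had higher values in tumors of mice given HMB, by a median of 0.45 on the log2 scale in the control diet and 0.48 in DIO, with every difference short of the adjusted threshold. In control + HMB against control all 10 members had a difference above 0, against 55.4% of all genes, and 9 had one with array medians subtracted or quantiles matched again and 8 with array width in the model. The median of all genes was 0.04. In DIO + HMB against DIO, 9 of 10 were above 0, against 47.9% of all genes, with a median of -0.01 for all genes, and 8 or 9 of 10 were above 0 under the same 3 scalings. The member below 0 there was Pdcd1lg2. In DIO against control the members were split, 5 above and 5 below 0 (53.8% of all genes above), with a median of -0.04, and 3 above 0 under each of the 3 scalings. In DIO + HMB against control (51.2% of all genes above 0) and in the averaged HMB effect (52%), 10 of 10 members were above 0, and 8 or 9 under the 3 scalings. In the interaction 5 of 10 were (43.4%). Members were read on the same arrays, with correlations between them from r = 0.05 (Havcr2 and Tox) to 0.85 (Ctla4 and Tigit). They are thus not independent observations, and these counts are a description.

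At an unadjusted p under 0.05 the members counted in control + HMB against control were Havcr2, Pdcd1 and Lgals9, all higher (7.22% of all genes were counted as higher). In DIO + HMB against DIO they were Tigit and Tox, both higher (3.34%), and in DIO against control Havcr2, higher (4.31%), and Tox, lower (3.44%). With the HMB effect averaged over both diets, Havcr2, Pdcd1, Lgals9, Tox, Tigit and Ctla4 were counted, all higher (8.1%), but 4 members with array medians subtracted or quantiles matched again and 1 with array width in the model. Havcr2 and Lgals9 were counted in DIO + HMB against control, both higher (8%). The counts in either direction were thus 2 of 10 in DIO against control (7.74% of all genes), 3 in control + HMB against control (11.4%), 2 in DIO + HMB against DIO (7.08%), 2 in DIO + HMB against control (14.8%) and 6 for the averaged effect (13.9%). No member was counted as lower in the last 4 of these, where 4.22%, 3.75%, 6.76% and 5.75% of all genes were. In the interaction 1 of 10 was counted (4.82%), and 0 as higher (1.63%). No member was lower in every array of a group, as 4.95% of genes were in DIO against control, 6.07% in control + HMB against control, 4.22% in DIO + HMB against DIO and 6.59% in DIO + HMB against control. Leaving out 1 array moved these medians widely: without control + HMB replicate 2 the median of control + HMB against control was 0.18, and without both DIO replicate 3 and DIO + HMB replicate 1 that of DIO + HMB against DIO was 0.28, with 0 members at an unadjusted p under 0.05.

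**Figure D2:**
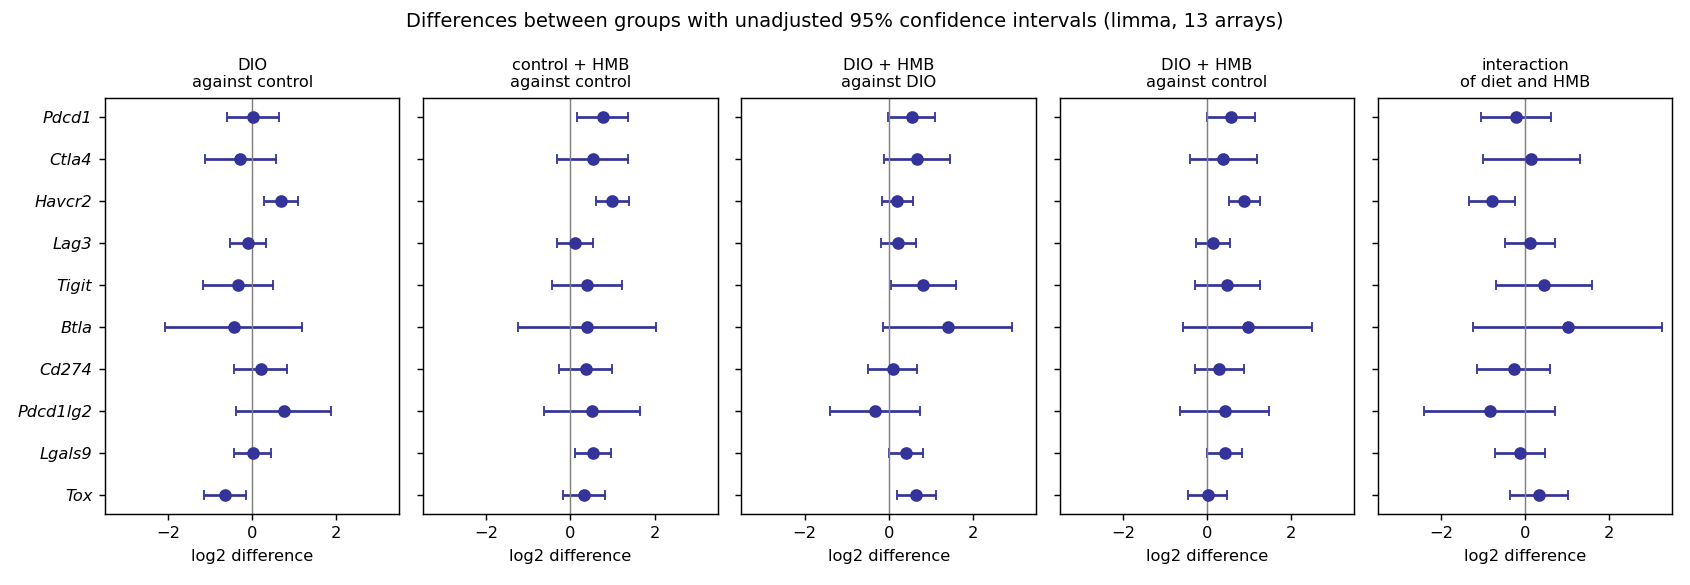
Log2 difference of each gene with its 95% confidence interval in 5 of the comparisons (x axis, log2; y axis, genes). Havcr2 has intervals above 0 in all 3 comparisons with control, Tox lies at -0.64 in DIO against control and 0.66 in DIO + HMB against DIO, and the Btla intervals are the widest.

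Havcr2 encodes TIM-3, an inhibitory receptor of exhausted T cells that dendritic cells and macrophages also carry. It was 6.61, 6.27 and 6.78 in the control arrays and 7.35, 7.71 and 7.61 in control + HMB. It was 7.17, 7.21 and 7.34 in DIO and 7.13, 7.49, 7.81 and 7.34 in DIO + HMB. The control arrays were the 3 lowest of all 13 and did not overlap with any other group. Group means were 6.55 ± 0.26 (SD, n = 3) in control, 7.55 ± 0.18 (n = 3) in control + HMB, 7.24 ± 0.090 (n = 3) in DIO and 7.44 ± 0.29 (n = 4) in DIO + HMB. Control + HMB was therefore higher than control by 1.00 ± 0.18 (log2, SE), a 2-fold difference, with an adjusted p of 0.271. Every array was also higher in control + HMB than in control for 11.4% of all genes. The corresponding differences from control were 0.69 ± 0.18 in DIO (adjusted p = 0.591) and 0.89 ± 0.17 in DIO + HMB (adjusted p = 0.137). Every array was higher for 6.04% of genes in the former and 8.35% in the latter.

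With HMB added to the obese mice, Havcr2 differed by 0.20 ± 0.17 (adjusted p = 0.804), and those 2 groups overlapped. This difference was 0.083 without DIO + HMB replicate 3 and 0.31 without DIO + HMB replicate 1. The interaction, the HMB difference in DIO minus the one without obesity, was -0.79 ± 0.25 on the log2 scale. It had an adjusted p of 0.933 over all genes, and Havcr2 was the 1 member at an unadjusted p under 0.05 in it, where 3.19% of all genes were counted as lower. In the F test across the groups Havcr2 ranked 21 of 22180 genes, with an adjusted p of 0.436. With array width in the model its unadjusted limma p in that test was 0.064, against 0.00049 without it. Leaving out any 1 array kept its difference between 0.86 and 1.11 in control + HMB against control, between 0.54 and 0.80 in DIO against control, and between 0.75 and 1.00 in DIO + HMB against control. The macrophage score, over 12 genes, ran from -0.35 to 0.13 in control, -0.06 to 0.24 in control + HMB, -0.17 to -0.02 in DIO and -0.03 to 0.23 in DIO + HMB. Its part in the Havcr2 differences was not tested. The array width was also narrowest in the control arrays and DIO replicate 2, and with width in the model Havcr2 was higher by 0.76 in control + HMB against control.

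Lgals9 encodes galectin-9, a secreted lectin that binds TIM-3. Its values were 9.29, 9.59 and 9.74 in control and 9.95, 10.25 and 10.02 in control + HMB. They were 10.0015, 9.58 and 9.08 in DIO and 9.94, 9.89, 9.96 and 10.06 in DIO + HMB. Every array of control + HMB and of DIO + HMB lay above every control array, as for 11.4% and 8.35% of all genes, while the DIO arrays spread widely and overlapped with all groups. Lgals9 was higher than in control by 0.54 ± 0.20 in control + HMB (adjusted p = 0.365) and by 0.42 ± 0.19 in DIO + HMB (adjusted p = 0.325). Under the alternatives other than leaving out 1 array, the former was as low as 0.22 and the latter as low as 0.083. DIO and control differed by 0.01 ± 0.20. Between DIO + HMB and DIO the difference was 0.41 ± 0.19 (adjusted p = 0.705), and 0.17 without DIO replicate 3. The DIO difference from control turned to -0.21 without DIO replicate 1 and to 0.25 without DIO replicate 3.

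Pdcd1 encodes PD-1, the receptor that is blocked by anti-PD1 antibodies. Its values were 5.51, 5.88 and 6.70 in control and 6.69, 6.97 and 6.72 in control + HMB. They were 6.04, 6.25 and 5.84 in DIO and 7.06, 6.18, 6.41 and 6.70 in DIO + HMB. Control replicate 3 reached the level of the control + HMB arrays, and DIO + HMB replicate 2 that of the DIO arrays, so both pairs of groups overlapped. Pdcd1 was higher by 0.77 ± 0.28 in control + HMB against control (1.7-fold, adjusted p = 0.352) and by 0.54 ± 0.26 in DIO + HMB against DIO (1.46-fold, adjusted p = 0.707). Averaged over both diets the HMB difference was 0.65 ± 0.19 (adjusted p = 0.241). DIO and control differed by 0.02 ± 0.28, with a 95% interval from -0.59 to 0.63. Without control replicate 1 the difference of control + HMB from control was 0.51, and without both arrays that stood apart that of DIO + HMB from DIO was 0.28.

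The PD-1 ligand genes Cd274 and Pdcd1lg2 are neighbors on chromosome 19 with 0 annotated genes between them, and encode PD-L1 and PD-L2. Cd274 was 7.49, 7.84 and 8.21 in control, 8.59, 8.61 and 7.41 in control + HMB, 8.14, 8.12 and 7.89 in DIO, and 8.31, 7.95, 8.39 and 7.91 in DIO + HMB. Control + HMB held both the highest and the lowest of the 13 values. Its differences were 0.36 ± 0.29 in control + HMB against control (adjusted p = 0.657) and 0.09 ± 0.27 in DIO + HMB against DIO, with a 95% interval from -0.50 to 0.68, and they were -0.065 and -0.15 with array width in the model. With 1 array left out, the former ran from 0.16, without control + HMB replicate 2, to 0.76, without control + HMB replicate 3, and the latter from 0.0069, without DIO + HMB replicate 3, to 0.17, without DIO + HMB replicate 4. Pdcd1lg2 spread further, from 4.55 in control replicate 1 to 7.11 in control + HMB replicate 2. In DIO + HMB against DIO it differed by -0.33 ± 0.49 (95% interval -1.39 to 0.74), and its difference of DIO from control was 0.75 ± 0.52 (adjusted p = 0.751). The former ran from -0.59, without DIO + HMB replicate 1, to -0.061, without DIO replicate 2, and was -0.84 without both arrays that stood apart. The latter was 0.31 without control replicate 1. In control + HMB against control it differed by 0.51 ± 0.52, and by -0.077 without control + HMB replicate 2.

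Ctla4, Tigit and Btla encode inhibitory receptors of T cells. The first 2 compete with costimulatory receptors for shared ligands. BTLA binds the TNF receptor family member HVEM, and B cells carry BTLA as well. Ctla4 was 4.30, 3.96 and 4.68 in control, 4.84, 5.72 and 3.97 in control + HMB, 4.18, 4.29 and 3.62 in DIO, and 5.26, 4.40, 4.91 and 4.26 in DIO + HMB. Its highest value was in control + HMB replicate 2. That group's difference from control was 0.53 ± 0.39 (adjusted p = 0.624), and 0.092 without that array. DIO + HMB lay above DIO by 0.68 ± 0.36 (adjusted p = 0.718), with 1 overlapping array in DIO + HMB, and by 0.28 without both arrays that stood apart. Tigit was 5.06, 5.14 and 6.45 in control, 6.05, 6.30 and 5.46 in control + HMB, 5.53, 5.46 and 4.64 in DIO, and 6.47, 5.58, 6.29 and 5.81 in DIO + HMB. Every DIO + HMB array was above every DIO array, as for 3.57% of all genes, though the nearest values were only 5.53 and 5.58. The difference was 0.83 ± 0.36, or 1.77-fold (adjusted p = 0.705), and 0.40 without both arrays that stood apart.

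Btla was 9.17 in DIO + HMB replicate 1 and 5.56, 5.98 and 5.86 in the other DIO + HMB arrays. It was 5.90, 5.10 and 6.03 in control, 5.66, 6.77 and 5.78 in control + HMB, and 5.75, 5.35 and 4.60 in DIO. Only 1 array of the 13 was thus far above the rest. The difference of DIO + HMB from DIO was 1.41 ± 0.71 (adjusted p = 0.708), 0.57 without DIO + HMB replicate 1 and 0.25 without DIO replicate 3 as well. The B cell score of DIO + HMB replicate 1 was 3.69, and its part in the Btla value was not tested.

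Lag3, a receptor related to CD4 that binds MHC class II, varied least among the receptors. Its 13 values lay between 5.87, in DIO replicate 1, and 6.72, in DIO + HMB replicate 4, and all 4 groups overlapped. The differences were 0.11 ± 0.20 in control + HMB against control (95% interval -0.32 to 0.55), 0.23 ± 0.19 in DIO + HMB against DIO (-0.18 to 0.64) and -0.09 ± 0.20 in DIO against control (-0.53 to 0.34). These intervals leave out a 2-fold difference in either direction.

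Tox had its lowest values in DIO. They were 4.30, 4.86 and 4.19 there and 5.38, 5.16, 4.999 and 4.89 in DIO + HMB, so the groups did not overlap, as for 3.57% of all genes with every array higher, although 4.86 and 4.89 were close. In control they were 4.71, 5.13 and 5.44, and in control + HMB 5.74, 5.22 and 5.30. DIO differed from control by -0.64 ± 0.23 (adjusted p = 0.601), and DIO + HMB from DIO by 0.66 ± 0.21, or 1.58-fold (adjusted p = 0.705). DIO + HMB and control differed by 0.02 ± 0.21, with a 95% interval from -0.45 to 0.48, and by -0.15 and -0.16 with array medians subtracted and quantiles matched again. Leaving out any 1 array kept the DIO difference from control between -0.85 and -0.47 and that of DIO + HMB from DIO between 0.53 and 0.86. Without both arrays that stood apart the latter was 0.44. The T cell score, given in full below, was also lowest in DIO.

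**Figure D3:**
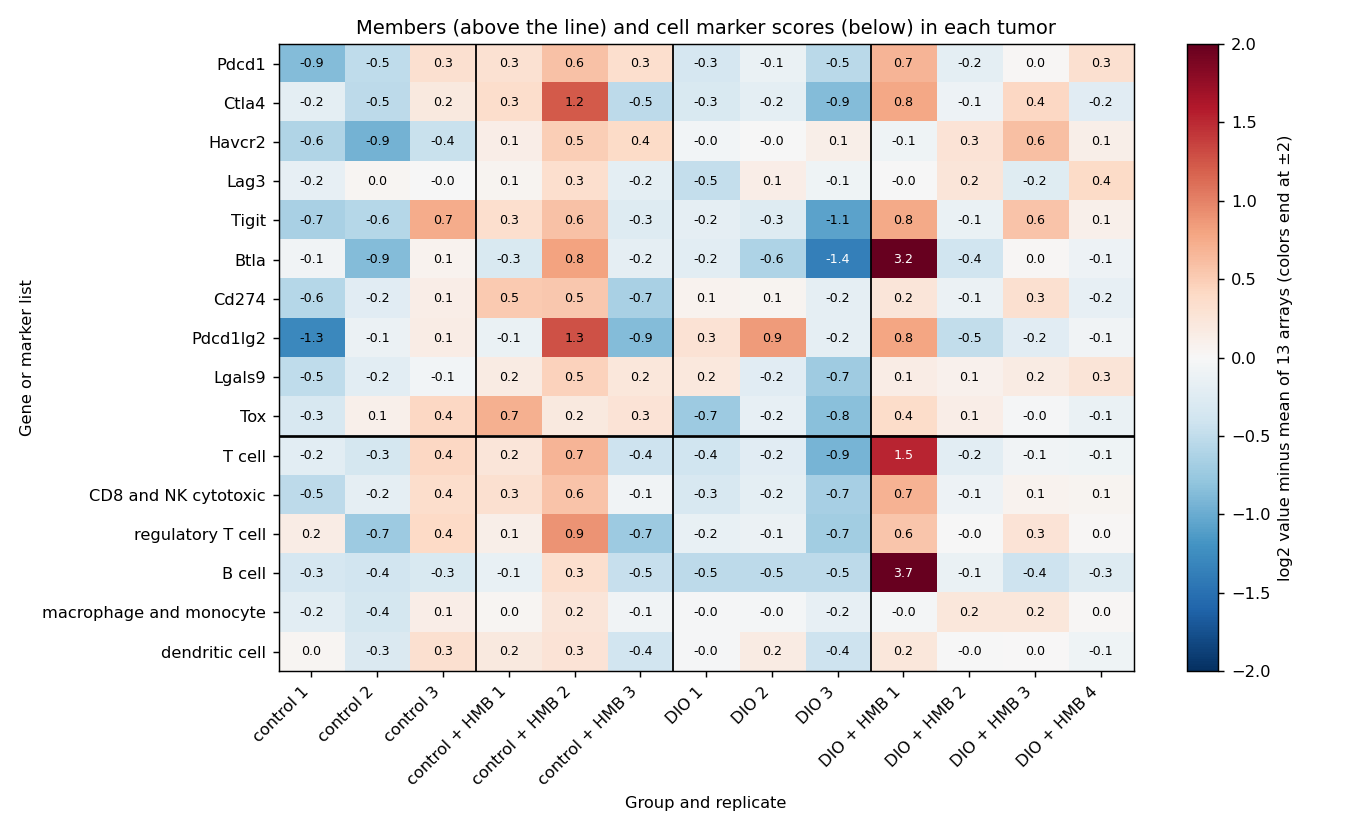
Log2 value of each gene minus its mean over the 13 arrays, and below the line the scores of 6 cell marker lists (color and number, log2, colors end at ±2), with arrays in columns by group. Control + HMB replicate 2 and DIO + HMB replicate 1 are high and DIO replicate 3 low for several receptors at once.

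Several members were high or low in the same tumors. DIO replicate 3 was the lowest of all 13 arrays for 5 members (Ctla4, Tigit, Btla, Tox and Lgals9). Control + HMB replicate 2 was among the 2 highest arrays for 8 members, and the highest for Cd274, Pdcd1lg2, Ctla4 and Lgals9. DIO + HMB replicate 1 was the highest for Pdcd1, Tigit and Btla. The same counts were not made over all genes, so they do not set the members apart from other genes. Markers of T cells moved with the arrays named here. The T cell score, over 8 measured genes of a list of 12, was -0.34 to 0.42 in control, -0.42 to 0.69 in control + HMB with replicate 2 highest, -0.93 to -0.22 in DIO with replicate 3 lowest, and -0.20 to 1.52 in DIO + HMB with replicate 1 highest. Of the 8 T cell genes, 8 were above 0 in DIO + HMB against DIO (median 0.83), 7 in control + HMB against control (0.31) and 0 in DIO against control (-0.42), and none passed the adjusted threshold. Without both arrays that stood apart the first of these was 7 of 8, with a median of 0.16, and without control + HMB replicate 2 the second median was 0.022.

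The score of CD8 and NK cytotoxic genes, over 11 genes, ran from -0.52 to 0.35 in control, -0.07 to 0.56 in control + HMB, -0.66 to -0.20 in DIO and -0.11 to 0.70 in DIO + HMB. Of these 11 genes, 10 were above 0 in control + HMB against control and 10 in DIO + HMB against DIO, with medians of 0.47 and 0.57. The former was 0.039 without control replicate 1 and the latter 0.31 without both arrays that stood apart. The macrophage list had 12 of 12 genes above 0 in the former comparison (median 0.19, and 0.053 without control + HMB replicate 2) and 9 of 12 in the latter (0.15, and 0.082 without DIO replicate 3). Some other lists had every gene above 0 in DIO + HMB against DIO. They were 8 of 8 B cell genes (median 1.32, and 0.23 without both arrays that stood apart), 6 of 6 regulatory T cell genes (0.67, and 0.20 without both) and 6 of 6 adipocyte genes (1.11, and 0.69 without both). The remaining lists were mixed. Above 0 were 6 of 7 endothelial (0.40, and 0.35 without both), 5 of 7 neutrophil (0.52, and 0.39) and 3 of 4 acinar genes (0.21, and 0.20). So were 5 of 8 dendritic cell (0.23, and -0.031), 5 of 7 fibroblast (0.13, and -0.70), 4 of 7 Panc02 and ductal (0.02, and -0.30) and 3 of 6 skeletal muscle genes (0.04, and -0.24). The part of cell content in the members' differences was not tested.

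**Figure D4:**
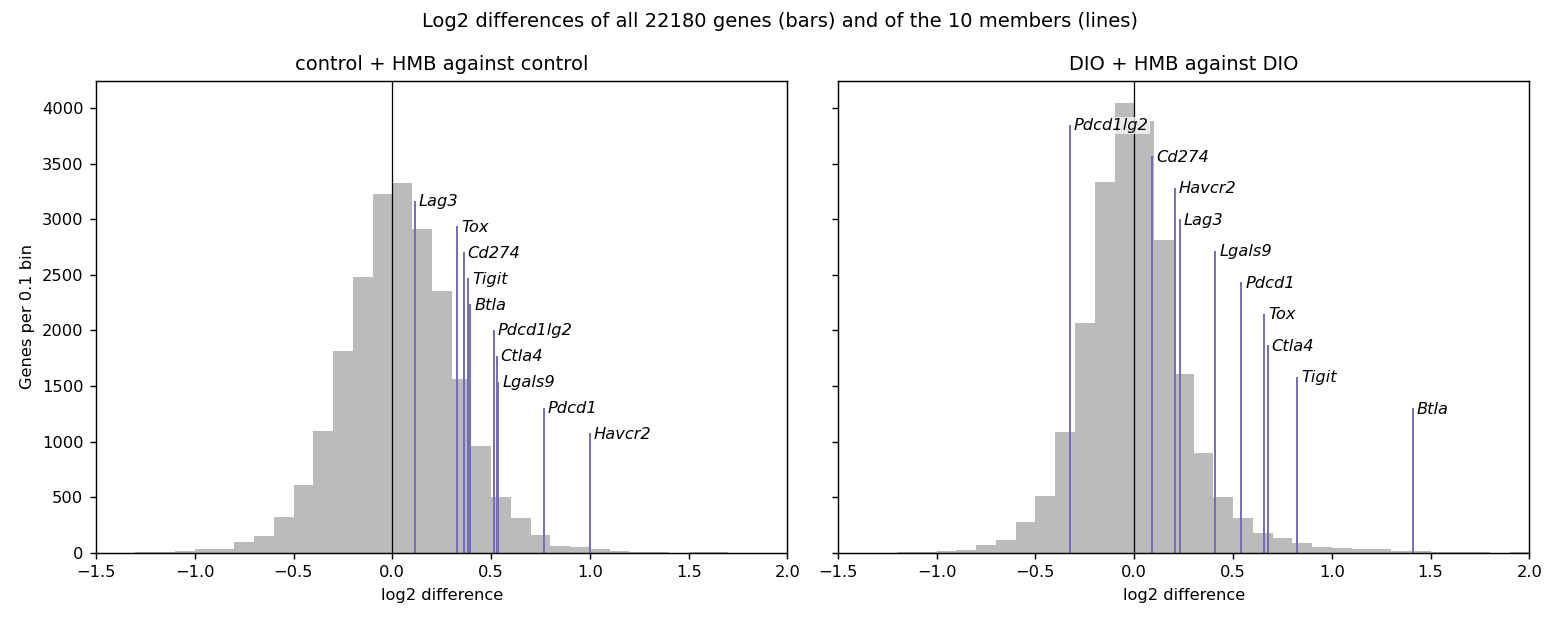
Number of genes per 0.1 bin of the log2 difference (bars, all 22180 genes, shown from -1.5 to 2.0) for control + HMB against control (left) and for DIO + HMB against DIO (right), with lines at the values of the 10 members; line heights only separate the names. In the control diet all lines lie above 0, from Lag3 (0.11) to Havcr2 (1.00), and in DIO they run from Pdcd1lg2 (-0.33) to Btla (1.41).

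Other genes of the pathway were read from lists, and their counts stand against 55.4% of all genes above 0 in control + HMB against control and 47.9% in DIO + HMB against DIO. The list of 19 partners of the members held further ligands, costimulatory or competing receptors and signaling phosphatases. Of these, 12 were above 0 in control + HMB against control (median 0.15) and 12 in DIO + HMB against DIO (0.07), with 0 past the adjusted threshold. Without control + HMB replicate 2 the former median was 0.033, and without both arrays that stood apart the latter was -0.022, with 9 of 19 above 0. The 2 with the lowest F test p were Icosl and Ptpn6. Icosl encodes the ligand of the costimulatory receptor ICOS, which is not a member. Ptpn6 encodes the phosphatase SHP-1 that acts below inhibitory receptors. Icosl was 6.57, 6.59 and 6.90 in control and 7.15, 7.78 and 7.22 in control + HMB, 6.95, 6.87 and 6.76 in DIO and 8.40, 7.34, 7.46 and 7.27 in DIO + HMB. Its HMB difference averaged over both diets was 0.73 ± 0.18 (adjusted p = 0.241), and every HMB array was above every array of the same diet without HMB, as for 11.4% of all genes in the control diet and 3.57% in DIO. In DIO + HMB against DIO alone Icosl differed by 0.76 ± 0.25, and by 0.45 without both arrays that stood apart. Averaged over both diets, the HMB difference of Ptpn6 was 0.45 ± 0.12 (adjusted p = 0.241).

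Of 18 measured genes among 20 further inhibitory receptors and ligands, 15 were above 0 in control + HMB against control (median 0.24) and 16 in DIO + HMB against DIO (0.24). These medians were 0.074 without control + HMB replicate 2 and 0.087, with 13 of 18 above 0, without both arrays that stood apart. Lilrb4a, an inhibitory receptor of myeloid cells, was higher by 0.43 ± 0.14 averaged over both diets (adjusted p = 0.249), and Cd200, whose product restrains myeloid cells, by 0.50 ± 0.22 (adjusted p = 0.343), or 0.27 without both arrays. Costimulatory genes of the TNF family were above 0 for 6 of 11 genes in the control diet (median 0.01) and 8 of 11 in DIO (0.26, and 0.067 without both arrays), and the former median was -0.094 without control + HMB replicate 2. Cd27, a costimulatory receptor of T cells, was 7.81, 5.93, 6.31 and 6.08 in DIO + HMB and 5.65, 5.30 and 4.77 in DIO, a difference of 1.29 ± 0.44 (adjusted p = 0.705) with DIO + HMB replicate 1 again highest. Without that array and DIO replicate 3, the lowest, it was 0.63. Tnfsf4, the ligand of OX40, differed by 0.21 ± 0.38, and by -0.17 without DIO replicate 2.

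Among 14 measured of 15 transcription factors of exhaustion and memory, 11 were above 0 in control + HMB against control (median 0.15) and 13 in DIO + HMB against DIO (0.17). Without control + HMB replicate 1 the former median was 0.081, and without both arrays that stood apart the latter was 0.071, with 8 of 14 above 0. Eomes, a T-box factor of cytotoxic and exhausted T cells, was higher by 0.67 ± 0.26 in the former and 0.66 ± 0.25 in the latter (adjusted p = 0.376 and 0.705). Bhlhe40, a factor of activated lymphocytes and macrophages, differed by 0.46 ± 0.18 and -0.08 ± 0.17 (-0.14 without both arrays that stood apart), and by 0.49 ± 0.18 in DIO against control (adjusted p = 0.601). For the interferon gamma route to PD-L1, 9 of 13 measured genes were above 0 in the control diet and 8 of 13 in DIO, with medians of 0.16 and 0.11. These were 0.068 without control replicate 1 and -0.076, with 5 of 13 above 0, without both arrays that stood apart. Stat3, a cytokine signal transducer, was higher by 0.53 ± 0.16 (adjusted p = 0.303) and 0.26 ± 0.15 (adjusted p = 0.724), and Ifngr2, a subunit of the interferon gamma receptor, by 0.27 ± 0.13 and 0.15 ± 0.12.

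Genes whose pattern over the 13 arrays was most like that of a member are given as a description, since the arrays share groups and RNA composition. Ctla4 was most like Ubash3a (r = 0.939), a suppressor of T cell receptor signaling, Sema4a (r = 0.934) and Selplg (r = 0.922), the ligand of P-selectin on leukocytes. Cd274 was most like Itgb2 (r = 0.946), an integrin chain of leukocytes, then Rhbdf2 (r = 0.893) and the metabolite receptor Hcar2 (r = 0.890). For Pdcd1 the closest genes were the zinc finger genes Zfp119a (r = 0.906) and Zfp956 (r = 0.905) and Klrd1 (r = 0.897), the CD94 chain of NK and CD8 T cells. Havcr2 was most like Kctd21 (r = 0.944), Zkscan14 (r = 0.939) and the proton pump subunit gene Atp6v0a2 (r = 0.930). Lgals9 was most like Top1mt (r = 0.934), Ccnd2 (r = 0.926) and Edrf1 (r = 0.922). For Tox the likeness was weaker, at r = 0.841 with Naip2, 0.835 with Msh5 and 0.833 with Neurl3. Spearman's rho of these pairs ran from 0.731 for Tox with Neurl3 to 0.967 for Cd274 with Itgb2. It was below r for some pairs and above it for others.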

How the data were processed

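Total RNA of 13 subcutaneous tumors, each from another mouse, was read on Affymetrix Mouse Gene 2.1 ST arrays. RMA (background subtraction, quantile normalization and probe set summary) was applied by the authors, whose deposited values are log2 intensities. Their processing notes name RMA, affy and limma, with no versions. The array's genome build is not given in the sources used here.

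The table held 41345 probe sets. Probe sets with 1 gene symbol were kept, and of several for a gene the brightest on average was used, giving 22180 genes with no filter on low signal. Each member had 1 probe set, and the symbol of 10 of 10 equaled the RefSeq symbol of its Entrez identifier. Array medians ran from 3.65 to 3.75. The number of arrays limits the precision: the SE of a member's log2 difference was 0.18 to 0.76 between groups of 3.

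A limma model (version 3.58.1, R 4.3.3) fitted a mean for each of the 4 groups, which left 9 residual degrees of freedom. It gave 6 two-sided comparisons: each other group against control, DIO + HMB against DIO, the average of the HMB differences in the 2 diets, and their interaction, coded as the difference in DIO minus the difference in control. It was run first on simulated data with planted differences and independent errors, without differences in cell content or array width. That run does not show how well differences of the members' size are found in these arrays. Intervals are 95% confidence intervals from the model. Alternatives were a filter on low genes, other scalings, array width as a covariate, another variance model, array weights, the mean of a gene's probe sets, fits of the compared groups alone, the methods' t-test, the replicate number as a block, leaving out each array, and leaving out both arrays that stood apart. The last, and leaving out arrays for the lists, were chosen after seeing the data. All members are named, with the 2 genes of lowest F test p from each pathway list and the 3 most correlated genes of 6 members, predicted genes excluded. Members and lists were chosen with earlier results of these data known.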

Additional observations from a re-analysis of the deposited data

Results flagged for a closer look

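In groups of 4 arrays, a value was singled out where its gap to the nearest array was above Dixon's 95% critical value for the group's whole range. Of 28 sets of DIO + HMB values examined (10 members and 18 list scores), 5 were singled out. For a single set chance gives about 1 in 20. The 28 sets were read on the same 4 arrays, so they are not independent and their count cannot be set against that share. Btla was 9.17 in DIO + HMB replicate 1 and 5.56 to 5.98 in the other arrays of the group. In the same array the score of the members' partners was 0.45, against -0.03 to 0.02, the T cell score was 1.52, against -0.20 to -0.07, and the B cell score was 3.69, against -0.42 to -0.13. The skeletal muscle score was 4.00 in DIO + HMB replicate 3, against -1.60 to -0.95. No interaction of diet and HMB passed the adjusted threshold for a member.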

How the results depend on the processing

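No member passed an adjusted p of 0.05 under any alternative, and 53 of 1400 alternative values of a member's difference had the opposite sign to the reported one. Havcr2 kept its sign in all 6 comparisons. Array medians subtracted moved the median of all genes by -0.14 in control + HMB against control, -0.12 in DIO + HMB against DIO and -0.17 in DIO + HMB against control. Members above 0 in DIO against control numbered 3, not 5, with medians subtracted, quantiles matched again or width in the model, and 3 to 6 with 1 array left out. Of all genes, 1 passed in control + HMB against control with low genes left out and 2 with a trended, robust variance, and with 1 array left out 0 to 1 there, 0 to 1 in DIO + HMB against DIO and 0 to 3 in DIO + HMB against control. Members above 0 in the interaction were 3 without both arrays that stood apart and 3 to 6 with 1 array left out. With medians subtracted, quantiles matched again and width in the model, in that order, Lgals9 was -0.039, -0.035 and -0.15 in DIO against control, and Pdcd1lg2 -0.035, -0.017 and -0.027 in the averaged HMB effect. With the first and second of these, Pdcd1 was -0.034 and -0.051 in DIO against control, Lag3 -0.025 and -0.041 in control + HMB against control and -0.034 and -0.016 in DIO + HMB against control, and Tox -0.15 and -0.16 in the last. Cd274 was -0.027 in DIO + HMB against DIO with medians subtracted. With width in the model Cd274 was -0.012 in DIO against control, -0.065 in control + HMB against control, -0.15 in DIO + HMB against DIO, -0.16 in DIO + HMB against control and -0.11 in the averaged HMB effect, Tigit was -0.084 in control + HMB and -0.016 in DIO + HMB against control, and Lgals9 was 0.012 in the interaction. Without both arrays that stood apart Cd274 was -0.045 in DIO + HMB against DIO, Tox -0.074 in DIO + HMB against control, Pdcd1lg2 -0.16 in the averaged HMB effect, and Ctla4 and Btla -0.24 and -0.15 in the interaction. The causes were not tested. Of all genes, 1717 had an unadjusted p under 0.05 in DIO against control, 2537 in control + HMB against control, 1571 in DIO + HMB against DIO, 3273 in DIO + HMB against control and 3072 in the averaged effect, and with width in the model 1390, 957, 936, 976 and 871, with 1 member in each. By the methods' t-test the first 4 counts were 1194, 2143, 1356 and 3053, with 1, 2, 1 and 2 members, and 0 genes after Benjamini-Hochberg adjustment. With 1 array left out, DIO against control ran from -0.24 to 0.35 for Pdcd1, -0.21 to 0.25 for Lgals9, -0.59 to 0.11 for Tigit and -0.23 to 0.073 for Lag3. Control + HMB against control ran from -0.024 to 0.24 for Lag3 and -0.077 to 0.99 for Pdcd1lg2, DIO + HMB against control from -0.17 to 0.19 for Tox and -0.014 to 0.70 for Pdcd1lg2, and the averaged HMB effect from -0.20 to 0.33 for Pdcd1lg2. The interaction ran from -0.56 to 0.035 for Pdcd1, -0.29 to 0.58 for Ctla4, -0.049 to 0.26 for Lag3, -0.0091 to 0.69 for Tigit and -0.36 to 0.098 for Lgals9.

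The labels do not say whether replicate numbers stand for a pairing or a batch. Same-numbered arrays of different groups had correlations of their deviations from group means from -0.185 to 0.297 (median -0.011). For other-numbered arrays of different groups they ran from -0.344 to 0.314 (median -0.005). With so few arrays a group, these correlations cannot decide it. With the replicate number as a block, 0 members passed and their medians were 0.45 in control + HMB against control, 0.44 in DIO + HMB against DIO, 0.48 in DIO + HMB against control, -0.04 in DIO against control, 0.57 in the averaged effect and -0.07 in the interaction.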
